A study of Mus musculus with 25 samples.

Results

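Myh8 encodes the neonatal myosin heavy chain, the motor protein of thick filaments in newborn and newly regenerated muscle fibres. It lies on mouse chromosome 11 in a row of skeletal myosin genes that are used one after another, from embryonic Myh3 through Myh8 to the adult fast genes Myh1, Myh2 and Myh4. H3K27me3, trimethylation of lysine 27 on histone H3, is laid down by Polycomb repressive complex 2 and marks silent developmental genes. H3K9me3 marks constitutive heterochromatin, mostly at repeats. The regions described here were the rows of the deposited peak lists that the authors assigned to Myh8 (ENSMUSG00000055775), together with the other peaks of a 1.5 Mb window of chromosome 11 that reaches from 777 kb before the start of Myh8 to 723 kb after it (build mm10). There were 16 Myh8 peaks, all of them H3K27me3, among 34244 H3K27me3 and 20998 H3K9me3 peaks, 55242 in all. Another 17 peaks of the window were assigned to other genes, giving 33 peaks in the window.

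The study compared chromatin of regenerating myofibers from mouse tibialis anterior, 14 days after injury. All groups carried the tamoxifen-inducible Pax7-Cre(ERT2) driver, which acts in satellite cells, the stem cells of muscle, along with a mito-Dendra2 reporter labelling the fibres these cells form. All received tamoxifen (75 mg/kg, 5 doses) and then 50 µL of 1.2% BaCl2 into the muscle, and Dendra2+ fibres were dissected. The groups were wild-type, mfn2-/- (lacking mitofusin 2, a mitochondrial fusion protein), vhl-/- (lacking the ubiquitin ligase subunit that targets HIF1α for degradation) and HIF1dPA (expressing a HIF1α whose prolines were changed to alanines so that it escapes degradation). Each had 3 replicates per mark, 24 lists in total. The driver acts in stem cells, so a fibre can also hold nuclei that were never recombined. A lower signal in a dissected sample can come from fewer nuclei with the mark or from less mark per nucleus, and peak lists cannot tell these apart. The labels do not say whether replicates came from separate animals, so p-values measure the spread between these samples.

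The lists hold a score for each peak, defined by the authors as 10 times the negative log10 of its p-value, and no read totals, so depth is unknown and a score is comparable mainly within its own list. H3K27me3 lists held 3358 to 4035 peaks in wild-type, mfn2-/- and vhl-/- and 482 to 501 in HIF1dPA. On the X chromosome lay 30.0% to 30.3% of mfn2-/- peaks and at most 1.24% of those of any other list, and the labels give no sex. At most 1 of the peaks stronger than Myh8 in any list was on X, and on autosomes alone Myh8 ranked 9, 5 and 11 in the mfn2-/- lists, against 9, 6 and 12 on all chromosomes. Mfn2, Vhl and Hif1a had a peak in 0 of the 24 lists, so the marks give no check of the alleles.

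The main H3K27me3 signal of Myh8 was a block inside the gene rather than at its RefSeq start. RefSeq places Myh8 on the plus strand from 67277124 to 67308634 (31511 bp), and the longest Myh8 peak of the 12 lists fell within 67281518 to 67284995, that is 4394 to 7871 bp after the gene's first base. The authors' annotation placed it 1 to 2 or 2 to 3 kb from a start site, which is therefore not the RefSeq start. All 12 lists shared 683 bp of it (67282961 to 67283643). In wild-type lists the block ran from 67281520 to 67284995 in replicate 1, from 67281518 to 67284871 in replicate 2 and from 67281615 to 67284923 in replicate 3. In mfn2-/- lists it ran from 67281766 to 67283800, from 67281825 to 67284884 and from 67281892 to 67284797. In HIF1dPA lists it ran from 67281716 to 67284926, from 67281868 to 67284935 and from 67281603 to 67284865. These 9 lists shared 1909 bp (67281892 to 67283800). In vhl-/- lists the block was shorter and lay in a different place in each, from 67282961 to 67284799, from 67282569 to 67284102 and from 67282117 to 67283643.

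**Figure D1:**
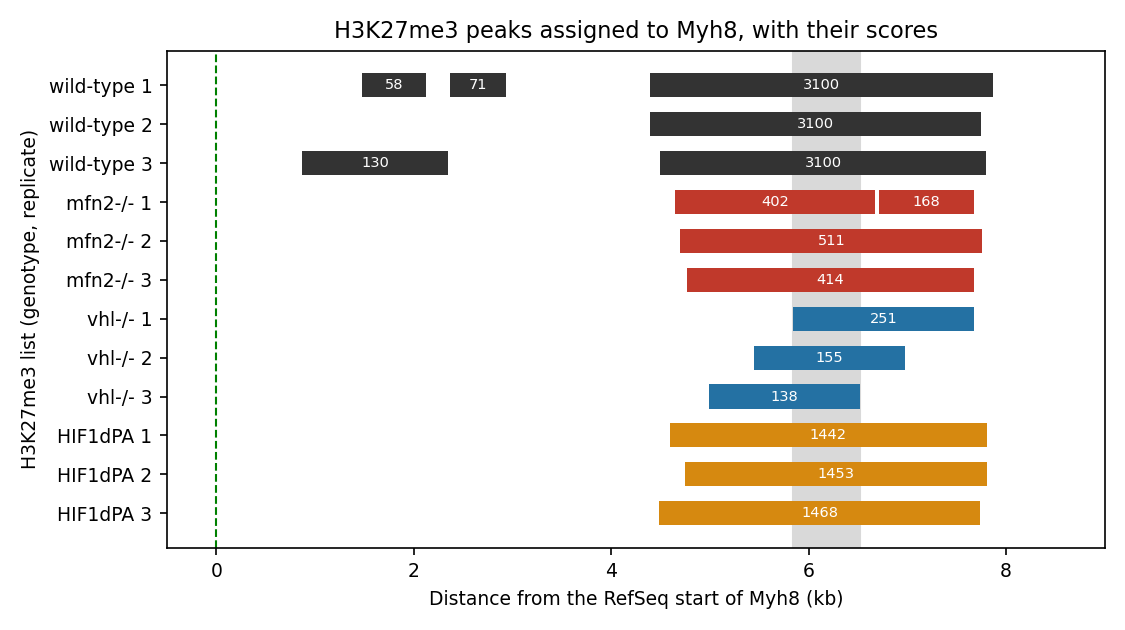
H3K27me3 peaks assigned to Myh8 in each of the 12 lists, plotted by distance from the RefSeq start of the gene in kb (dashed line), coloured by genotype and labelled with the peak score. The grey band is the 683 bp that all 12 lists share. The wild-type, mfn2-/- and HIF1dPA blocks lie over each other, and the vhl-/- blocks are shorter.

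The RefSeq promoter itself carried no peak in any list. The RefSeq promoter window of Myh8, 250 bases before to 50 after the start (chr11:67276874-67277173, GRCm38.p6, the assembly of mm10, plus strand), ended 817 bp before the nearest Myh8 peak. It is shown because the block lies outside it. The capitals mark the longest run of bases, 14 in length, that the windows of Myh8 and of the adult fast genes Myh1, Myh2 and Myh4 have in common.
Myh8 promoter: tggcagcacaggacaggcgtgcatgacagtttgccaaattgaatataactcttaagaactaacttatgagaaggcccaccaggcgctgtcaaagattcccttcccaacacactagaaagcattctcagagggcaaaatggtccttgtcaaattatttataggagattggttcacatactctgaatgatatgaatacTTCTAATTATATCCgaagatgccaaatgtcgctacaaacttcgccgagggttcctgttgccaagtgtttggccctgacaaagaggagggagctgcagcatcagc

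The same run is set beside its surroundings in the other 3 genes to show how far the windows resemble each other around it. The run ended 40 bases before the start in Myh8, 146 in Myh1, 111 in Myh2 and 144 in Myh4, each on the plus strand of the same build.
Myh1, chr11:67199932-67199965: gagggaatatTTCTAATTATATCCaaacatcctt
Myh2, chr11:67170892-67170925: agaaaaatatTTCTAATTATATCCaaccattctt
Myh4, chr11:67237644-67237677: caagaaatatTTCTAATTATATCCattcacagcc
Searched on both strands, TTCTAATTATATCC was in 4 of 32851 RefSeq promoter windows of this length (0.0122%), those 4 genes. The run was found by comparing these windows, so the count is a description and says nothing of a factor. Polycomb targets in mammals are often rich in CpG, and the Myh8 window held 6 CpG, with 44.7% G and C. Of all windows, 47.9% held as few. The other myosin genes of the row held 4 (Myh3), 9 (Myh2), 3 (Myh1), 1 (Myh4) and 3 (Myh13). Of genes with an H3K27me3 peak in at least 1 list, 3739 of 6091 had a window. The median of these windows was 13 CpG, and 31.9% held as few as Myh8. Of the other genes with a peak in all 12 lists, 25 of 37 had a window, with a median of 17 CpG and 16.7% holding as few. The genes without a window may differ, so this is a description only.

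The Myh8 block was the strongest H3K27me3 peak of every wild-type and HIF1dPA list, and of no mfn2-/- or vhl-/- list. In wild-type the best Myh8 peak scored 3100 in all 3 replicates. That value was also reached by 1 H3K9me3 peak and by no other, and it may be a ceiling, so differences from wild-type may be understated. The strongest other wild-type peak, in the lysosomal enzyme gene Gusb each time, scored 993.81, 847.65 and 853.32, so Myh8 stood 3.12, 3.66 and 3.63 times above it. In HIF1dPA the Myh8 scores were 1442.38, 1453.44 and 1467.77, at 2.83, 2.78 and 3.11 times the strongest other peak (Gm5614 in replicates 1 and 2, Gm10801 in replicate 3). In mfn2-/- they were 401.68, 511.25 and 413.64, at 0.681, 0.590 and 0.566 times the strongest other peak (Gm5614, Gm5614 and the homeobox gene Nkx2-4). In vhl-/- they were 250.83, 155.22 and 137.95, at 0.245, 0.166 and 0.202 times the strongest other peak (Gm26553, Nkx2-4 and the zinc finger gene Plag1). Scores are comparable mainly within a list, and how many other genes separate the genotypes by score was not counted. In the ratio to the strongest other peak, the highest HIF1dPA value, 3.11, was just under the lowest of wild-type, 3.12.

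**Figure D2:**
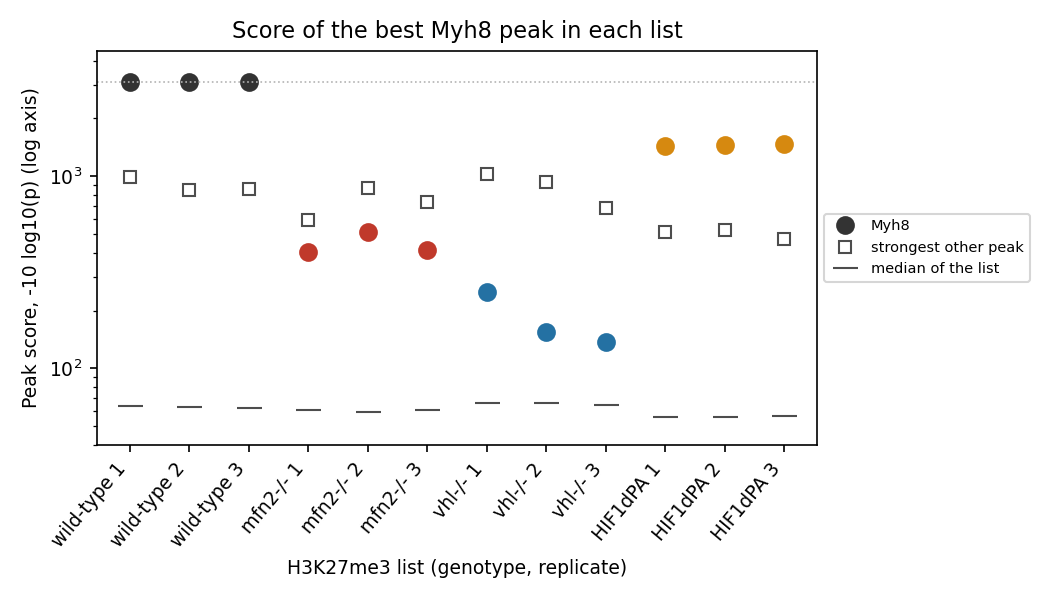
Best Myh8 peak score (filled circles), score of the strongest other peak (open squares) and median score (dashes) of each H3K27me3 list, on a log axis, with the highest score of any list, 3100, as a dotted line. Myh8 lies above the strongest other peak in wild-type and HIF1dPA and below it in mfn2-/- and vhl-/-.

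Most peaks of a list were weak, with list medians of 55.6 to 66.0. Myh8 scored 48.6 to 49.9 times this median in wild-type and 26.0 to 26.2 times in HIF1dPA. In mfn2-/- it scored 6.63 to 8.59 times the median, and in vhl-/- 2.13 to 3.81 times. The vhl-/- peak was thus still above most peaks of its list, at the percentiles 97.6, 91.5 and 90.9. The percentile was 100 ± 0 in wild-type and HIF1dPA, 99.8 ± 0.0751 in mfn2-/- and 93.3 ± 3.72 in vhl-/- (SD, n = 3 each). The exact permutation test of the percentile over 4 genotypes gave p = 0.000649 (adjusted p = 0.0025, over 14 tests). As a group, the 9 mutant lists were -2.30 points from wild-type, which did not pass the test (exact two-sided permutation p = 0.218, adjusted p = 0.269). The percentile cannot rise above 100, and its size depends on list length: the same difference was -18.3 points with 482 peaks per list and -11.3 points with scores of 100 or more (exact permutation p = 0.218 and 0.191).

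To set the change at Myh8 beside that of other genes, the best score of each gene was put on the log2 scale. It was then taken relative to the median of the other genes of its list. Only genes with a peak in all 6 lists of a pair of genotypes were fitted. Genes that lost their peaks altogether, such as Gusb, are outside this comparison. The comparisons with wild-type share the wild-type lists, and the wild-type level differs between them because each pair has its own set of genes. All 3 wild-type Myh8 scores were 3100. A ceiling there would also hide their spread, on which the SE and p-values rest in part. Relative to the other genes, Myh8 fell from 4.76 in wild-type to 2.05 in mfn2-/- (difference -2.71, SE 0.383, 6.55 times lower on the linear scale; limma adjusted p = 5.55e-06, 3 against 3 lists). It was the only gene called lower of 408, or 0.245%, and 4 others were called higher. The number called higher was 0 to 4 over the alternatives (1 with the replicate block and 0 without wild-type replicate 3 or mfn2-/- replicate 2), while Myh8 was the only gene called lower in each. It fell from 4.89 in wild-type to 0.52 in vhl-/- (difference -4.36, SE 0.360, 20.6 times lower; limma adjusted p = 9.88e-07). There it was the only gene called in either direction of 528, or 0.189%, and in both pairs its difference was the largest of all genes fitted. Both calls of Myh8 were kept under every alternative run. The lists end at a score of 50, so a gene weaker than Myh8 in wild-type could fall less before it left the fit. The rank by size therefore cannot show that Myh8 moved more than other genes. The counts of genes called lower are limited in the same way.

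Complete separation of the lists was more common than these calls. The relative score of Myh8 was lower in each mfn2-/- list than in each wild-type list, which held for 26 of 408 genes (6.37%), and lower in each vhl-/- list, which held for 29 of 528 (5.49%).

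No difference between HIF1dPA and wild-type passed the test on this scale. Relative log2 scores were 4.40 in HIF1dPA and 4.15 in wild-type (difference 0.25, SE 0.262, 95% interval -0.33 to 0.84; limma adjusted p = 0.628), with 40 genes fitted. Of these, 6 were called higher in HIF1dPA (15%) and 2 lower, and Myh8 was not among them. The median scores of the HIF1dPA lists averaged 55.8, close to the lowest score of 50, and wild-type Myh8 may be at a ceiling. The part of either in this difference was not tested. The direction depended on the scaling. Without centring, the difference for Myh8 was -1.09 (limma adjusted p = 0.00169), but the median difference of all 40 genes was -1.39, and 31 were called lower in HIF1dPA and 2 higher. Relative to the median of all peaks in the list it was -0.92 (limma adjusted p = 0.00517). A relative score lower in each HIF1dPA list than in each wild-type list held for 4 of 40 genes (10%), and Myh8 was not one of them. With the scores of all peaks of a gene summed it was higher in HIF1dPA (difference 1.29, limma adjusted p = 0.0169).

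**Figure D3:**
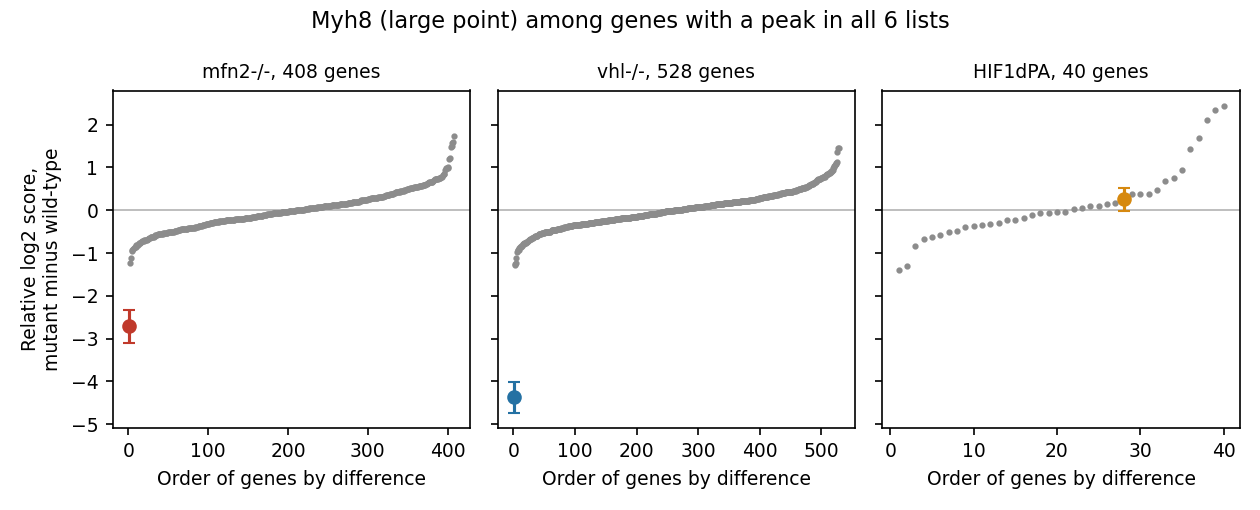
Difference in relative log2 score between each mutant and wild-type for all genes with an H3K27me3 peak in all 6 lists, in order of the difference. Myh8 is the large coloured point with its SE, at -2.71 in mfn2-/-, -4.36 in vhl-/- and 0.25 in HIF1dPA.

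The mutants also differed from each other at Myh8. The relative score was higher in mfn2-/- than in vhl-/- (2.11 against 0.36, difference 1.74, SE 0.404; limma adjusted p = 0.0133), and 3 of 431 genes were called higher (0.696%). This call was lost in other scalings (limma adjusted p = 0.117 relative to the list median, 0.0921 without centring and 0.0888 with summed scores) and without mfn2-/- replicate 2, vhl-/- replicate 2 or vhl-/- replicate 3. The relative score was lower in vhl-/- than in HIF1dPA (difference -4.92, SE 0.303, 30.3 times lower; limma adjusted p = 1.78e-07), as was called for 7 of 39 genes (17.9%). It was lower in mfn2-/- than in HIF1dPA (difference -3.21, SE 0.256, 9.24 times lower; limma adjusted p = 3.34e-05), and Myh8 was the only one of 41 genes called lower (2.44%). Without centring both differences were smaller, 8.31 and 3.31 times lower, while most other genes were then called higher in vhl-/- (33 of 39) and in mfn2-/- (27 of 41).

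Over the 38 genes with a peak in all 12 lists, the relative log2 score of Myh8 was 4.00, 4.10 and 4.31 in wild-type and 4.35, 4.43 and 4.47 in HIF1dPA, at rank 1 in each list. It was 0.91, 1.52 and 1.18 in mfn2-/-, at ranks 8, 3 and 5. It was -0.10, -0.65 and -0.74 in vhl-/-, at ranks 23, 29 and 32, and so below the median gene of this set. The genes whose relative score was most like that of Myh8 over the 12 lists were Lamp5 (Pearson r 0.76), Tfap2b (0.74), Nkx3-2 (0.58), Chl1 (0.57) and Gm26803 (0.50), out of 37. The points share their lists, so this is a description. In wild-type and HIF1dPA none of the 5 approached Myh8 in level, the highest mean relative log2 score there being 0.87, for Chl1 in HIF1dPA. In vhl-/- Nkx3-2 (-0.49) and Gm26803 (-0.44) were at the level of Myh8.

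The length of the mark at Myh8 varied less between genotypes than its score. The genotype means of block length were in the order of the unscaled scores. On the relative scale the mean was 4.40 in HIF1dPA and 4.15 in wild-type, a difference that did not pass the test. In wild-type the block measured 3476, 3354 and 3309 bp, and in HIF1dPA 3211, 3068 and 3263 bp. The mfn2-/- blocks measured 2035, 3060 and 2906 bp and the vhl-/- blocks 1839, 1534 and 1527 bp. The short block of mfn2-/- replicate 1 was followed after 34 bp by another Myh8 peak of score 168.21 in exon 9 of 40, and both together spanned 3032 bp. Every mutant block was shorter than every wild-type block, and the vhl-/- blocks were the shortest. How many other genes do the same was not counted for block length, and the shares for covered length are given below. The exact permutation test of block length over 4 genotypes gave p = 6.49e-05 (adjusted p = 0.000455). Mutants against wild-type, at -886 bp, did not pass after adjustment (exact two-sided permutation p = 0.0364, adjusted p = 0.0727).

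Of the 3257 bp that the wild-type blocks share, Myh8 peaks covered 92.0%, 93.6% and 89.2% in mfn2-/-, 96.9%, 92.2% and 99.8% in HIF1dPA and 56.5%, 47.1% and 46.9% in vhl-/-. So mfn2-/- lists kept nearly the whole width of the block at a score several times lower. The block began 4394 to 4491 bp after the gene's first base in wild-type, 4642 to 4768 bp in mfn2-/-, 4479 to 4744 bp in HIF1dPA and 4993 to 5837 bp in vhl-/-, and this start differed across genotypes (exact permutation p = 0.000714, adjusted p = 0.0025). Its end did not pass (exact permutation p = 0.138, adjusted p = 0.214), but did with peaks within 1000 bp joined (exact permutation p = 0.00916), without mfn2-/- replicate 1 (exact permutation p = 0.0312) and without vhl-/- replicate 1 (exact permutation p = 0.0381). The mutant means were 484 bp later in start and -402 bp in end from wild-type (exact two-sided permutation p = 0.0727 and 0.173). In 10 of 12 lists the last base of the Myh8 peaks lay within 200 bp of the furthest, the exceptions being vhl-/- replicates 2 and 3.

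Both edges were placed within a narrow range in wild-type. Starts spread over 97 bp and ends over 124 bp among its 3 lists. For 134 other genes whose longest peaks overlapped in all 3 wild-type lists the median spreads were 740.5 and 822.5 bp, and 5.97% and 4.48% of them had a spread as small. Myh8 was the strongest peak of these lists, and it was not compared with peaks of similar score. The part of peak strength in the spread was thus not tested. In mfn2-/- the starts of Myh8 spread over 126 bp and the ends over 1084 bp, against medians of 672 and 671.5 bp over 94 genes. The spread of ends came from the divided peak of replicate 1 and was 87 bp with its peaks joined. In vhl-/- they spread over 844 and 1156 bp, against 699 and 755 bp over 171 genes, so there Myh8 was no tighter than most. In HIF1dPA they spread over 265 and 70 bp, and only 9 other genes could be compared (medians 196 and 130 bp).

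Peaks near the start site of Myh8 were seen in wild-type only, and not in every replicate. Replicate 1 had peaks from 67278601 to 67279248 (score 57.54) and from 67279489 to 67280056 (71.35), and replicate 3 had one from 67277990 to 67279472 (130.01). The authors placed them within 1 kb of a start site, although they began 1477, 2365 and 866 bp after the RefSeq start. Replicate 2 and the 9 mutant lists had none. With these peaks included, covered length was 4692, 3354 and 4792 bp in the wild-type replicates. The mfn2-/- replicates had 2998, 3060 and 2906 bp, and in vhl-/- and HIF1dPA it equals the block length. Covered length differed by genotype (exact permutation p = 6.49e-05, adjusted p = 0.000455) and between mutants and wild-type (-1679 bp, exact two-sided permutation p = 0.00909, adjusted p = 0.0212), but the latter did not pass without these peaks (-779 bp, exact p = 0.1). A covered length lower in every mutant than in every wild-type list held for 64 of 408 genes in mfn2-/- (15.7%), 9 of 528 in vhl-/- (1.7%) and 35 of 40 in HIF1dPA (87.5%). Myh8 was one of them each time, and in HIF1dPA that is near what most genes showed.

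The rest of the window held few peaks of either mark. Of 34 RefSeq genes that overlap the window, 19 were protein-coding, and 4 of these, with Myh8 among them, had a peak of either mark assigned. These 4 (Shisa6, Myh8, Gas7 and Usp43) each had an H3K27me3 peak in at least 1 list, and the window was chosen around Myh8. That is near the share over all genes. Of 21900 protein-coding RefSeq genes, 19.7% had an H3K27me3 peak in at least 1 list. The nearest other myosin genes, Myh4 and Myh13, lay 21071 bp before and 42108 bp after the Myh8 blocks and had no peak, nor did Myh1, Myh2 or Myh3. The nearest H3K27me3 peak assigned to another gene was 629 to 756 kb upstream and 171 to 1145 kb downstream in wild-type. It was 1799 to 3358 kb upstream and 1909 to 1911 kb downstream in mfn2-/-, and 717 to 755 kb upstream and 563 to 1225 kb downstream in vhl-/-. In HIF1dPA it was 381 to 20333 kb upstream and 1872 to 12689 kb downstream. The median distance from a peak to the nearest peak of any gene, on either side, was 3.32 to 4.00 kb in wild-type lists. In HIF1dPA lists it was 803 to 1091 kb. This median also counts peaks of the same gene, so it cannot be set directly against the distances of Myh8.

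**Figure D4:**
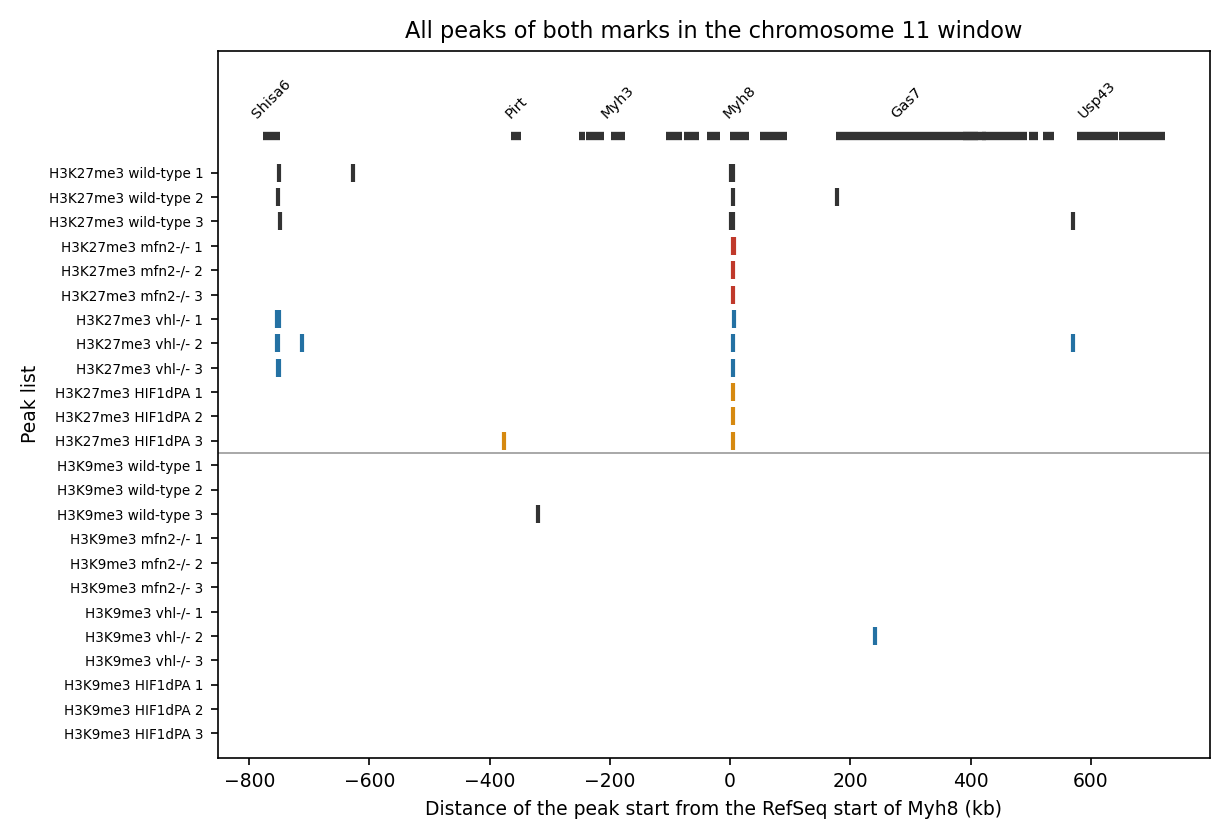
Peaks of both marks in the 1.5 Mb window, by distance of the peak start from the RefSeq start of Myh8 in kb, with 1 row for each of the 24 lists and bars for protein-coding genes on top, some of them named. The Myh8 block is in all 12 H3K27me3 lists and no H3K9me3 list, and the peaks at the left edge are those of Shisa6.

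Outside Myh8 the window held 15 H3K27me3 peaks in 7 lists. Wild-type had 6 of them, vhl-/- 8, HIF1dPA 1 and mfn2-/- 0. As a share of all peaks in the lists these were 0.0563%, 0.0692%, 0.0675% and 0%. The HIF1dPA share rests on 1 peak of score 51.65. The part of list length in these counts was not tested. Of the 15 peaks, 9 were at the start of Shisa6, which encodes a glutamate receptor auxiliary protein. Shisa6 had a peak in 3 of 3 wild-type lists, with best scores of 125.79, 100.89 and 53.72, and in 3 of 3 vhl-/- lists, with 88.87, 87.07 and 70.73, but in no mfn2-/- or HIF1dPA list. The order of genotypes at Shisa6 was thus not that at Myh8, which was weakest in vhl-/-. The others were in 1 or 2 lists each: Usp43 in wild-type replicate 3 and vhl-/- replicate 2, Gas7 in wild-type replicate 2 (55.84), Gm12297 in wild-type replicate 1 and vhl-/- replicate 2, and Gm12298 in HIF1dPA replicate 3. In the window outside Myh8, H3K27me3 covered 1643 ± 223 bp in wild-type and 2221 ± 749 bp in vhl-/-, but 0 ± 0 bp in mfn2-/- and 173 ± 300 bp in HIF1dPA (SD over 3 lists). The exact permutation test over genotypes gave p = 0.00195 (adjusted p = 0.00545), with lengths not scaled to the number of peaks in a list. With peaks of score 100 or more only, this was not seen (exact permutation p = 0.182). Mutants and wild-type did not differ by the test (-845 bp, exact two-sided permutation p = 0.241, adjusted p = 0.269).

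H3K9me3 had 2 peaks in the window, at Tmem238l in wild-type replicate 3 (51.96) and in intron 1 of 13 of Gas7 in vhl-/- replicate 2 (79.66), and none at any myosin gene of the row. Covered length did not differ across genotypes (exact permutation p = 1) or between mutants and wild-type (-239 bp, exact two-sided permutation p = 0.25).

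As a background, 19.7% of 21900 protein-coding RefSeq genes had an H3K27me3 peak in at least 1 list. Of 22 other sarcomeric and myosin genes, 0 had an H3K27me3 peak in any list, and 1 had an H3K9me3 peak (Myh15, in 1 wild-type list, score 52.88). A list of 16 muscle genes held regulators of the lineage and the acetylcholine receptor subunit genes Chrng and Chrne, which had no peak. Of these 16, 6 had an H3K27me3 peak in at least 1 list. Neither count was tested against the background. Pax3, a regulator of embryonic muscle progenitors, had a peak in 10 lists (best scores 60.63 to 259.52). Prdm1, which encodes the repressor Blimp1, had one in 9 lists (110.23 to 169.46), all of wild-type, mfn2-/- and vhl-/- and none of HIF1dPA. Eya1, a transcriptional coactivator, had one in 8, and the satellite cell gene Pax7 in 5. Myf5 and Sox6 had a peak in 1 list each. In H3K9me3 lists Eya1 had a peak in 3 and Mef2c in 1.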

How the data were processed

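ChIP-seq of H3K27me3 and H3K9me3 was deposited as 1 peak list per library (4 genotypes, 2 marks, 3 replicates), and the wild-type input had no list and was not used. The submitters' processing notes name BWA 0.7.5, MACS, deepTools 3.5.0 and build mm10. The score is deposited by the authors as 10 times the negative log10 of the peak's p-value and ran from 50 to 3100 (p-values from 1e-05 down). Gene and feature assignments are the authors'. Depth is unknown, so no counting interval was computed.

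For each gene the best score per list was put on the log2 scale, minus the median of the other genes fitted, and compared between genotypes with limma 3.58.1 (R 4.3.3, Benjamini-Hochberg over all genes with a peak in all 6 lists, call at 0.05). Percentile, covered length, block length, start and end, and window length were compared with exact permutation tests over lists: 4 genotypes (369600 arrangements), and 3 wild-type against 9 mutant lists (220, smallest p 0.00455). The 14 exact tests were adjusted together. Tests of 3 against 3 lists cannot go below 0.1 and are not reported. Scripts were tested on simulated data. Python 3.11.15, numpy 2.4.6 and pandas 2.3.3 were used, and promoter sequences and gene positions came from RefSeq (GRCm38.p6).

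The gene, window and gene lists were chosen with earlier results of these data known. Named genes were Myh8, the genes of the window and fixed lists of sarcomeric genes and of myogenic regulators, the latter with Chrng and Chrne. The strongest other gene of each list and the 5 genes most like Myh8 were also named. Alternatives were a score of 100 or more, other scalings and gene sets, autosomes only, joining peaks within 1000 bp, dropping peaks within 1 kb of a start site, equal numbers of peaks, the replicate number as a block and leaving out each list.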

Additional observations from a re-analysis of the deposited data

Results flagged for a closer look

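The effects of the 3 mutant genotypes on Myh8, each measured against the same wild-type lists, differed from one another when the mutants were compared directly. The relative log2 score of Myh8 was higher in mfn2-/- than in vhl-/- by 1.74 (limma adjusted p = 0.0133), as was called for 3 of 431 genes (0.696%). The adjusted p ranged from 0.00752 to 0.209 over the alternatives, so this difference did not hold in all of them. The difference of vhl-/- from HIF1dPA was -4.92 (limma adjusted p = 1.78e-07) and that of mfn2-/- from HIF1dPA was -3.21 (limma adjusted p = 3.34e-05). Both were called in every alternative that could be fitted. In the first fits 7 of 39 genes (17.9%) were called lower in vhl-/- and 1 of 41 (2.44%) in mfn2-/-. HIF1dPA lists were shorter, with 482 to 501 peaks against 3358 to 4035 in the others, and the part of list length in these differences was not tested.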

How the results depend on the processing

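Of 289 recomputed values over 20 results, 263 kept their direction and their side of 0.05. For the exact tests this side was judged by the p before adjustment, in the first values too. The lower Myh8 scores of mfn2-/- and vhl-/- against wild-type held throughout, at -2.86 to -2.63 and -4.60 to -4.24 with each list left out. For HIF1dPA against wild-type the difference of 0.25 turned to -0.92 relative to the median of all peaks and -1.09 without centring, and was 1.29 with summed scores. That of mfn2-/- against vhl-/-, 1.74, lost its call at 1.45 relative to the list median, 1.33 without centring and 2.04 with summed scores, and with lists left out it was 1.59 to 1.97 (adjusted p 0.0115 to 0.209). The difference in covered length of mutants from wild-type was -779 bp without peaks near start sites and -2141 to -1422 bp with lists left out, failing only without wild-type replicate 3 (-1422 bp, p 0.0727). The block length difference, -886 bp, was under 0.05 only before adjustment (exact permutation p = 0.0364). It was -775 bp with peaks joined (exact permutation p = 0.105). With lists left out it was -982 to -765 bp, with p above 0.05 in 7 of 12 of these. The p for block end across genotypes was 0.00916 with peaks joined and 0.0312 to 0.250 with lists left out. It was under 0.05, before adjustment, without mfn2-/- replicate 1 or vhl-/- replicate 1. For H3K27me3 in the window outside Myh8, peaks of score 100 or more gave an exact permutation p = 0.182 across genotypes and -821 bp for mutants (p 0.0455), and leaving out lists gave -1130.5 to -736 bp, passing only without vhl-/- replicate 2 (p 0.0485). For H3K9me3 the difference was -395 to 72.3 bp, reversed without wild-type replicate 3. The causes of these changes were not tested. Genes called in the direction of the first Myh8 difference were 1 and 1 in every fit of mfn2-/- and vhl-/- against wild-type. For HIF1dPA against wild-type, where Myh8 was not called in the first fit, 2 to 9 genes were called higher (6 in the first fit). The count of 2 came from the scalings in which Myh8 itself was lower. The range was 0 to 4 (3) for mfn2-/- against vhl-/-. It was 2 to 9 (7) for vhl-/- against HIF1dPA and 1 to 8 (1) for mfn2-/- against HIF1dPA. The score minimum of 100 left too few genes for the fits with HIF1dPA.

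With the replicate number as a block no call of Myh8 changed (differences -2.71, -4.36, 0.25 and 1.74 as before, with adjusted p of 0.000717, 1.26e-06, 0.727 and 0.00752; covered length -1679 bp, p 0.0313), but genes called higher in mfn2-/- than in wild-type fell from 4 to 1. The numbers do not pair the lists: same-numbered lists of different genotypes deviated with a mean correlation of -0.015 (-0.316 to 0.247), and 4 of 12 lists correlated best with their own number. Unknown depth, a possible ceiling at 3100 and 3 lists per genotype limit all comparisons.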
